A study of Mus musculus with 32 samples.

Results

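The genes described here are 9 that act in neural progenitors or in the patterning of the neural tube: Nes, Nkx2-2, Nkx2-2os, Nkx6-1, Nkx6-2, Olig1, Olig2, Neurog2 and Neurod1. They were picked by gene symbol from a table of 27179 mouse genes, and each symbol matched 1 gene. They were chosen with organ differences of these data already known, in particular those of Nes and Nkx2-2os in brain and liver. Their organ differences are therefore given as a description with a standard error (SE) and without a test. Tests are given for preservation, which did not enter the choice, and for other genes. The lists of other genes were also set with earlier results of these data known.

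Mouse brain, heart, kidney and liver were profiled by MeDIP-seq. In this assay single-stranded DNA is precipitated with an antibody that binds 5-methylcytosine (5mC), and the precipitate is sequenced. Each organ was taken either as FFPE tissue, fixed in formalin and embedded in paraffin, or as flash-frozen tissue. The labels give no strain, sex, age or genotype of the mice, and the organs are whole tissue, so the signal of a rare cell type cannot be told apart from that of the rest. The labels list 32 samples, 16 of 5mC and 16 of input DNA, with 2 of each kind per organ and preservation. The deposited values give 1 column per organ and preservation, 8 in all, each called a library here. The sources used here do not say whether the 2 5mC samples of a group were pooled in a column or only 1 was used.

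Nestin, the product of Nes, is an intermediate filament protein of dividing neural progenitors. Nkx2-2, Nkx6-1 and Nkx6-2 encode homeodomain transcription factors that divide the ventral neural tube into progenitor domains in response to Sonic hedgehog, and Nkx2-2 and Nkx6-1 also act in the endocrine pancreas. Olig1, Olig2, Neurog2 and Neurod1 encode basic helix-loop-helix (bHLH) factors: the Olig factors act in motor neuron and oligodendrocyte progenitors, Neurog2 starts neurogenesis and Neurod1 acts later in differentiating neurons. Promoters of such developmental regulators are often rich in the dinucleotide CG, which is the main site of 5mC in mammals and is often unmethylated at these promoters.

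Promoters of 8 of the 9 genes were found in the RefSeq table (build GRCm38.p6), which holds 250 bases before and 50 bases after a start site of each gene. For Neurog2 and Nkx2-2 that start site lies 403 and 9032 bases inside the gene's whole span, and for the other 6 it is the 5′ boundary of the span. Olig1 had no entry. The promoters of the 4 genes with the largest brain differences, described further on, are printed here to show how far they differ in their CG content, with each CG in capitals. They lie at chr3:87970843-87971142, plus strand (Nes), chr2:147183833-147184132, plus strand (Nkx2-2os), chr5:101664662-101664961, minus strand (Nkx6-1) and chr3:127632886-127633185, plus strand (Neurog2).
Nes: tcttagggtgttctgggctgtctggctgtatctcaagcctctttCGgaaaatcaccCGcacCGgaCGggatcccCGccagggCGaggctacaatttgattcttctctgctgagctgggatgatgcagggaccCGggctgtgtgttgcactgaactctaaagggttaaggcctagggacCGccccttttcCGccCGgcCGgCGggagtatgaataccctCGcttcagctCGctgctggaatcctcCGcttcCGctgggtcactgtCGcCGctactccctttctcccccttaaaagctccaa
Nkx2-2os: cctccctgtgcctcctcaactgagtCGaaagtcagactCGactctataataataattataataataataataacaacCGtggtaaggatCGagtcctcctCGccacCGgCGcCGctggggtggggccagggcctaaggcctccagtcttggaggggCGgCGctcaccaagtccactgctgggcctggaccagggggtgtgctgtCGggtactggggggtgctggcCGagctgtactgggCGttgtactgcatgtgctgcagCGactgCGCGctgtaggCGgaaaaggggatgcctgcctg
Nkx6-1: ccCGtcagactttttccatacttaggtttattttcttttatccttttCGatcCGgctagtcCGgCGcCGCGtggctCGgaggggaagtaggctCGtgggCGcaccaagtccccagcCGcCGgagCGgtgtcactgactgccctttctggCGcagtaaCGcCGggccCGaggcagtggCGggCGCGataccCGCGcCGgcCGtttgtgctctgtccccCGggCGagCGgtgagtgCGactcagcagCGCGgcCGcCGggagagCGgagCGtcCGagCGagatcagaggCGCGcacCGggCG
Neurog2: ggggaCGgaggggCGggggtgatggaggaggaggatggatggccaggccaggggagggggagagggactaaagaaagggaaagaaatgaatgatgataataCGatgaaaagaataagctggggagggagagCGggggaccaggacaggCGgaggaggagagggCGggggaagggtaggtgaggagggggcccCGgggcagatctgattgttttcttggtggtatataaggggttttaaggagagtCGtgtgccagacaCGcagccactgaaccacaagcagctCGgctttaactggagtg
The motif CG reads the same on both strands, and 94.6% of 32851 promoters of this length hold at least 1. The Nkx6-1 promoter holds 40, a number that 3.91% of promoters reach. Those of Nes and Nkx2-2os hold 18 and 17 (reached by 29.7% and 31.4% of promoters), and that of Neurog2 holds 10 (43.5%). The promoters of Nkx6-2, Neurod1, Olig2 and Nkx2-2 hold 32, 26, 25 and 17. The median promoter holds 7. The deposited values are sums over a gene, so no value belongs to these windows alone.

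The values are read counts scaled per library (CPM) and given as log2, with 0.5 added to each count. The library size used in the scaling was 0.851 (FFPE liver) to 1.10 (FFPE brain) times the reads on genes, with a product of 1 over the 8 libraries, so a normalization factor is already part of the deposited values. All values step back to whole reads. The 8 libraries held 2164158 to 3699218 reads on genes, with a median of 36 to 63 per gene. In a library, 0 reads on a gene allow up to 0.876 to 1.42 CPM (3 reads), a limit that covers counting error only. The frozen kidney library stood apart with 2999 genes at 0 reads, against as few as 880 in another library, and with the widest spread of values over genes (SD 2.91 log2, against 2.07 in the narrowest, frozen brain). Results that involve kidney are therefore also given by library. Mean signal was higher for longer genes (Pearson r = 0.611 over 24357 genes; genes are not independent), and no source used here says whether exons or whole genes were counted. Levels are therefore compared between libraries for each gene and not between genes.

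**Figure D1:**
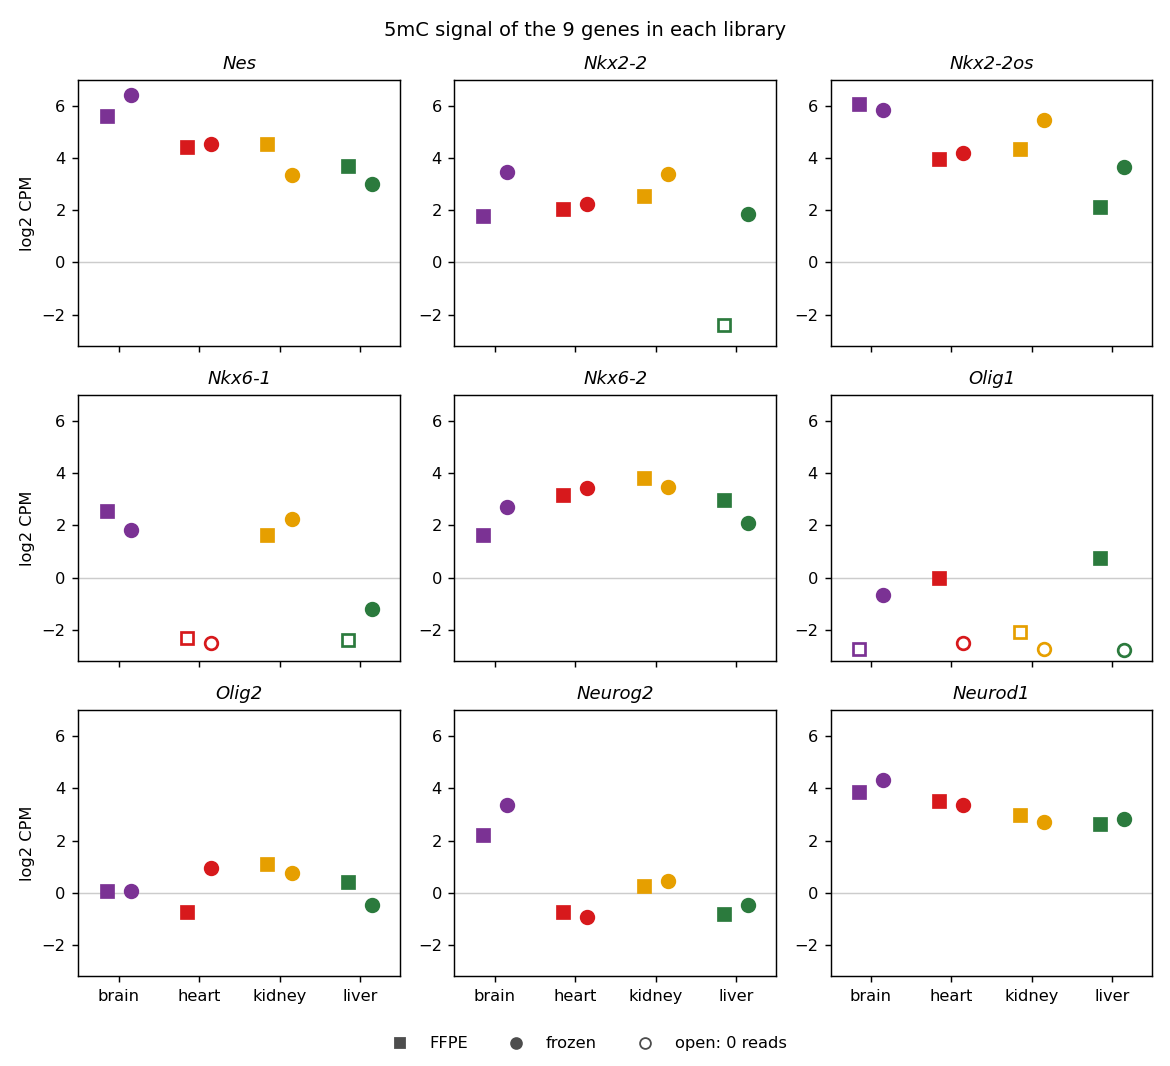
Log2 CPM of each of the 9 genes by organ, with FFPE libraries as squares and frozen libraries as circles, and open symbols where a library had 0 reads. Both brain libraries lie above all others for Nes, Nkx2-2os, Neurog2 and Neurod1, whereas Olig1 and Olig2 lie near the counting floor in every organ.

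Nes (Entrez ID 18008, chr3:87971093-87980451) carried more 5mC signal in brain than in the other organs. It had 162 reads in FFPE brain and 204 in frozen brain, against 54 and 65 reads in FFPE and frozen heart, 48 and 33 in FFPE and frozen kidney, and 34 and 27 in FFPE and frozen liver. On the log2 CPM scale these were 5.60 and 6.41 in brain, 4.44 and 4.52 in heart, 4.52 and 3.35 in kidney, and 3.71 and 3.01 in liver. Both brain libraries lay above the other 6, and within each preservation the exact Poisson 95% interval of brain lay above those of the other 3 organs. The mean was 6.01 log2 CPM in brain and 3.92 over the other organs, a difference of 2.08 ± 0.34 (SE), or 4.24-fold. Within preservation the difference was 1.38 in FFPE tissue and 2.79 in frozen tissue. The order of the organ means was brain, heart, kidney and liver. The liver libraries were the lowest of their preservation, with a mean of 3.36 against 4.81 log2 CPM in the other organs (-1.45 ± 0.34), although their counting intervals overlapped those of kidney. Heart and kidney could not be ordered with confidence, because FFPE heart and FFPE kidney differed by less than their counting intervals.

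Genes next to Nes were looked at by position, a choice made after the values of Nes had been seen. Within 200 kb of Nes, 17 other genes were tested, of which 4 were higher and 2 lower in brain (limma, Benjamini-Hochberg adjusted p under 0.05), against 8.61% of all 25982 tested genes higher and 12.8% lower. Both direct neighbours were among the higher. Bcan, which encodes the brain extracellular matrix proteoglycan brevican and begins 7.08 kb beyond the end of Nes, had 84 and 84 reads in FFPE and frozen brain, against 33 and 30 in heart, 7 and 16 in kidney, and 3 and 11 in liver (FFPE before frozen throughout). It was 2.65 ± 0.50 log2 higher in brain (adjusted p = 0.00193, limma). Crabp2, a retinoic acid binding protein whose gene ends 17.7 kb before Nes, had 48 and 26 reads in FFPE and frozen brain, 1 and 1 in heart, 10 and 26 in kidney, and 2 and 8 in liver. Its difference was 2.85 ± 0.73 (adjusted p = 0.0123, limma), although the frozen kidney library held as many reads as frozen brain.

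Hapln2, which encodes a link protein of the matrix at nodes of Ranvier, lies 40.1 kb beyond Nes. It had 66 and 54 reads in FFPE and frozen brain, 14 and 21 in heart, 12 and 49 in kidney, and 2 and 0 in liver, and was 2.90 ± 0.72 log2 higher in brain (adjusted p = 0.0106, limma). In liver, the differences were -2.44 for Bcan (adjusted p = 0.00303, limma) and -4.88 for Hapln2 (adjusted p = 0.000317, limma). The value of Hapln2 depends on the 0.5 added to its count of 0. The other called genes of the window were Sh2d2a, higher in brain by 0.68 (adjusted p = 0.0179, limma), and Isg20l2 and Mef2d, lower in brain by 0.94 and 1.04 (values of -0.94 and -1.04, adjusted p = 0.0189 and 0.00724, limma). The median over the 17 genes was -0.15, against 0.11 over all tested genes, so the higher signal did not extend over the window as a whole. The calls of Bcan, Crabp2 and Hapln2 were lost when either brain library was left out, which also leaves fewer degrees of freedom. Without FFPE brain the adjusted p of Bcan was 0.0591, of Crabp2 0.258 and of Hapln2 0.102 (limma). Without frozen brain these were 0.098, 0.148 and 0.237 (limma), with differences that stayed between 2.33 and 3.36. Sh2d2a kept its call without FFPE brain (adjusted p = 0.0446, limma), and lost it without frozen brain (0.456), without frozen heart (0.0573) and under median centring (0.051). Without the variance trend all 4 higher calls were lost (adjusted p = 0.0725 to 0.122, limma).

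**Figure D2:**
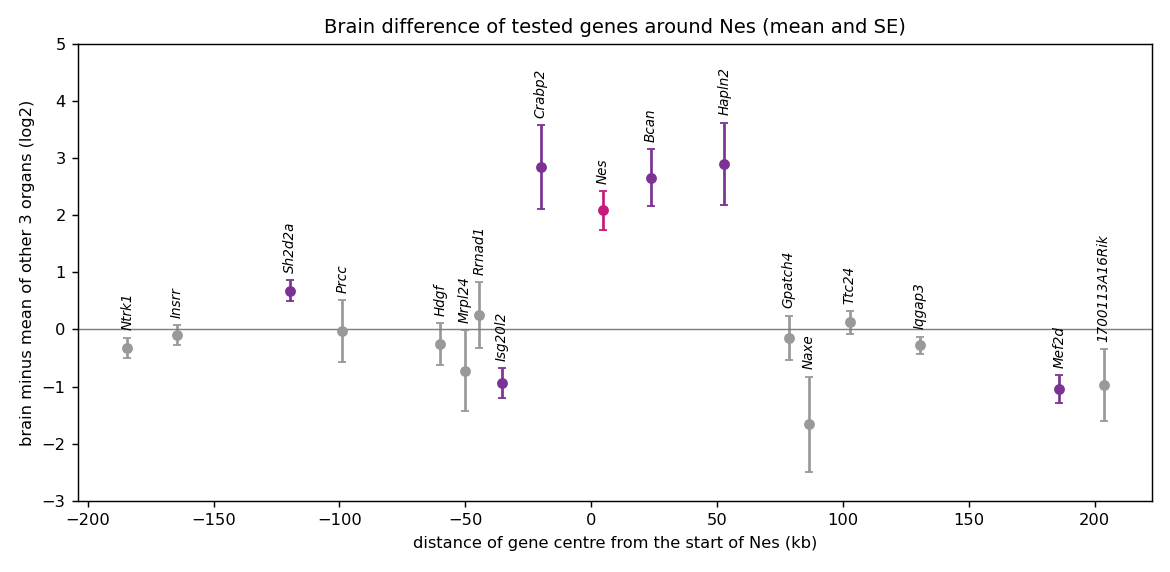
Brain minus the mean of the other 3 organs (log2) for each tested gene within 200 kb of Nes, against the distance in kb of the gene's centre from the start of Nes, with called genes in purple, the others in grey and Nes in pink. Crabp2, Bcan and Hapln2, between 2.65 and 2.90, lie at the same level as or above Nes. The other genes lie between -1.66 (Naxe) and 0.68 (Sh2d2a), among them Isg20l2, which is nearer to Nes than Hapln2 and lower in brain.

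The Nkx2-2 locus holds a pair of overlapping genes. Nkx2-2 (Entrez ID 18088, chr2:147176485-147195434) and the long non-coding RNA gene Nkx2-2os (Entrez ID 100313531, chr2:147184083-147331681) share 11352 bp, and DNA reads carry no strand of transcription, so reads in the shared part cannot be assigned to either. No source used here says how such reads were counted. Nkx2-2os had 225 and 137 reads in FFPE and frozen brain, 39 and 52 in heart, 43 and 144 in kidney, and 11 and 43 in liver. These were 6.07 and 5.84 log2 CPM in brain, 3.97 and 4.20 in heart, 4.36 and 5.46 in kidney, and 2.12 and 3.67 in liver. Brain was highest and liver lowest within each preservation, but the counting intervals of frozen brain and frozen kidney overlapped. The difference of brain from the other organs was 1.99 ± 0.33 (3.98-fold), with 2.59 in FFPE tissue and 1.40 in frozen tissue. The difference of liver was -2.09 ± 0.33.

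Nkx2-2 itself was a low gene with another order of organs. It had 11 and 26 reads in FFPE and frozen brain, 10 and 13 in heart, 12 and 34 in kidney, and 0 and 12 in liver. The organ differences were 1.0 ± 0.78 for brain, 0.37 ± 0.78 for heart, 1.47 ± 0.78 for kidney and -2.85 ± 0.78 for liver. The liver value rests on the FFPE library with 0 reads, which allows up to 1.14 CPM. Without that library it was -1.16, and without frozen liver it was -4.53. Brain, heart and kidney could not be told apart by these counts.

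Nkx6-1 (Entrez ID 18096, chr5:101659184-101664711), which specifies motor neuron progenitors and pancreatic beta cells, had reads in brain and kidney and almost none in heart and liver. It had 19 and 8 reads in FFPE and frozen brain, 0 and 0 in heart, 6 and 15 in kidney, and 0 and 1 in liver. On the CPM scale, brain stood 8.41-fold and kidney 6.95-fold above a floor of 3 reads over both heart libraries. The counting error of the brain and kidney reads is not part of these values. The ratio of brain to liver was 28.5 (95% interval 4.7 to 1.17e+03, exact, counting error only), and that of kidney to liver was 23.5 (3.79 to 973). Brain and kidney did not separate, at a ratio of 1.21 (0.659 to 2.25). In the fit across all genes the brain difference was 2.95 ± 0.99 and the kidney difference 2.60 ± 0.99, values that depend on the 0.5 added to counts of 0.

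Nkx6-2 (Entrez ID 14912, chr7:139579376-139582797), a relative of Nkx6-1 that is used in oligodendrocyte maturation, differed from the others in its order of organs. It had 10 and 15 reads in FFPE and frozen brain, 22 and 30 in heart, 29 and 36 in kidney, and 20 and 14 in liver. FFPE brain was the lowest of the FFPE libraries, and frozen brain lay above frozen liver. The difference of brain from the other organs was -0.98 ± 0.51, with -1.66 in FFPE tissue and -0.30 in frozen tissue, and that of kidney was 0.98 ± 0.51. The gene overlaps Inpp5a by 277 bp, and reads in that stretch cannot be assigned to either gene.

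The Olig genes were near the limit of detection. Olig2 (Entrez ID 50913, chr16:91225550-91228677) had 3 and 2 reads in FFPE and frozen brain, 1 and 5 in heart, 4 and 5 in kidney, and 3 and 2 in liver. All 8 counting intervals overlapped, and the organ differences of -0.38 to 0.87 were smaller than their SE of 0.96. Olig1 (Entrez ID 50914, chr16:91269769-91271939), which lies 41.1 kb from Olig2, had 7 reads over all libraries. It had 0 and 1 in FFPE and frozen brain, 2 and 0 in heart, 0 and 0 in kidney, and 4 and 0 in liver. It reached 1 CPM in 1 library and was the only one of the 9 genes not to enter the fit. A difference between organs was not detectable at this depth for either gene.

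Neurog2 (Entrez ID 11924, chr3:127632733-127635636) had reads mainly in brain. It had 15 and 24 reads in FFPE and frozen brain, 1 and 1 in heart, 2 and 4 in kidney, and 1 and 2 in liver. Both brain libraries lay above the other 6. On the CPM scale the ratio of brain was 18.2 to heart (exact 95% interval 4.71 to 156), 6.12 to kidney (2.57 to 17.7) and 13.7 to liver (4.36 to 69.4), counting error only. The fitted difference from the other organs was 3.16 ± 0.90, with 2.65 in FFPE tissue and 3.66 in frozen tissue. Heart, kidney and liver, with 2, 6 and 3 reads over both libraries, could not be ordered.

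Neurod1 (Entrez ID 18012, chr2:79452637-79456636) showed the same direction with a smaller difference. It had 48 and 47 reads in FFPE and frozen brain, 28 and 29 in heart, 16 and 21 in kidney, and 16 and 24 in liver. Both brain libraries were the highest, at 3.86 and 4.31 log2 CPM, and the difference of brain from the other organs was 1.08 ± 0.42 (2.11-fold). Within each preservation, however, the counting interval of brain overlapped that of heart.

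**Figure D3:**
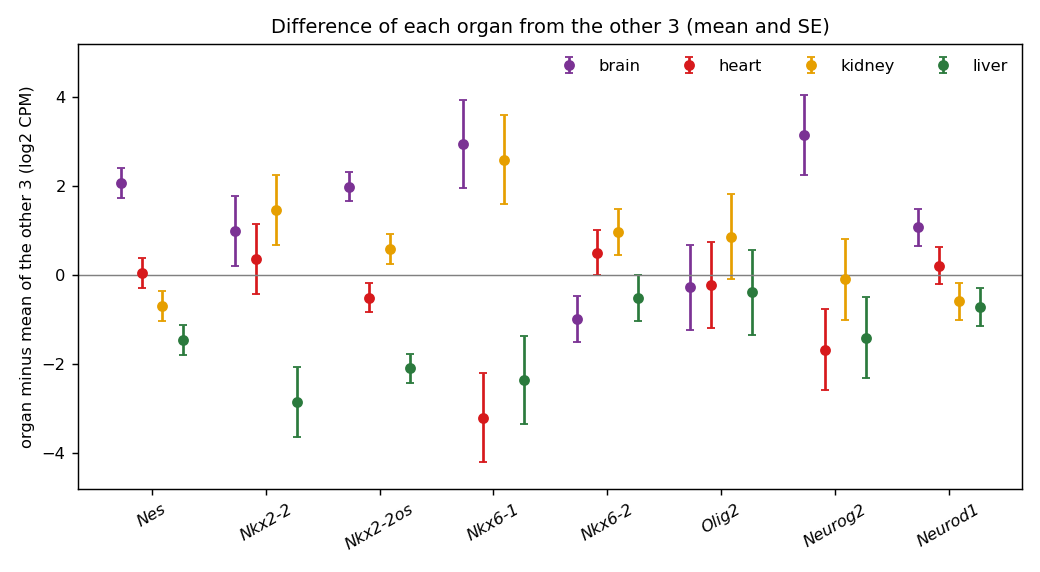
Difference of each organ from the mean of the other 3 (log2, mean ± SE from the fit of organ plus preservation) for the 8 genes that entered the fit. Nes, Nkx2-2os, Neurog2 and Nkx6-1 lie between 1.99 and 3.16 in brain, and Nkx6-2 lies at -0.98.

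Brain differences went with the level of a gene: over all 25982 tested genes the difference of brain from the other organs was lower at higher mean signal. Its median was 1.17 in the lowest quintile of genes by mean signal, then 0.58, 0.13 and -0.14, and -0.36 in the highest quintile. For liver the medians ran the other way, from -0.69 in the lowest quintile to 0.35 in the highest. The members were chosen with organ differences known, so their ranks among genes of like signal are a description and no test. Nes and Nkx2-2os are in the middle quintile, where 99.7% and 99.6% of genes had a lower brain difference. Neurog2 and Nkx6-1 are in the lowest quintile, at its percentiles 96.0 and 94.2. Neurod1, in the quintile above it, was at percentile 72.5, and Nkx2-2, in the lowest quintile, at 44.7, near the middle of genes of like signal. Nkx6-2 was at percentile 3.58 of its quintile and Olig2 at 11.9. For liver, Nkx2-2os was at percentile 0.366 of its quintile, Nes at 2.81 and Nkx2-2 at 3.60. What part of the members' differences goes with this library-wide pattern was not tested.

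The promoter CG content moved with the same pattern. The median brain difference was 0.72 over 6000 genes whose promoter held 0 to 5 CG, 0.08 at 6 to 15, -0.20 at 16 to 25 and -0.26 over 4054 genes with 26 or more. Nes and Nkx2-2os, with 18 and 17, and Nkx6-1, with 40, were in the classes with medians below 0, whereas their own brain differences were 2.08, 1.99 and 2.95. Mean signal rose over the classes as well, from a median of 2.98 to 5.25 log2 CPM, so CG content and signal cannot be told apart here. Nkx6-1 has a mean of -0.03 log2 CPM and is in the lowest quintile of signal, where the median brain difference was 1.17. Neurog2, with 10, was in the class with a median of 0.08.

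**Figure D4:**
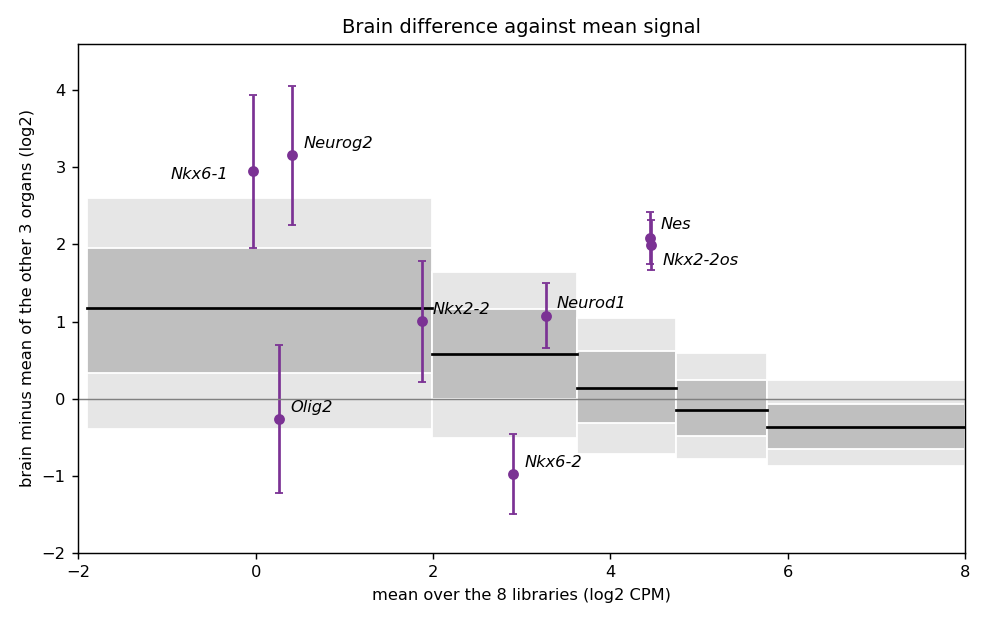
Brain minus the mean of the other 3 organs (log2) against mean log2 CPM, with the light grey band from the 10th to the 90th percentile, the dark grey band over the middle 50% and the black line at the median of each quintile of the tested genes, and the 8 genes that entered the fit as points. Nes and Nkx2-2os lie above the band of their quintile, Nkx6-2 lies below it, and Nkx2-2 lies inside the dark band.

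FFPE tissue was compared with frozen tissue over the 4 organs, to ask whether fixation and embedding changed the signal of these genes. Of the 8 genes in the fit, 0 passed the threshold, against 1.35% of all tested genes (limma, with organ as a term), and 2 had an unadjusted p under 0.05, as had 10.7% of all tested genes. The 2 are Nkx2-2 and Nkx2-2os, which overlap by 11352 bp and are not independent. Nkx2-2 was lower in FFPE tissue in 4 of 4 organs, with means of 1.0 log2 CPM in FFPE and 2.74 in frozen libraries, a difference of -1.74 ± 0.68 (adjusted p = 0.344, limma). By organ the difference was -1.69 in brain, -0.18 in heart, -0.83 in kidney and -4.27 in liver, where the FFPE library had 0 reads. With either liver library left out, the mean difference of Nkx2-2 was -0.90. Nkx2-2os was lower in FFPE tissue in 3 of 4 organs, with means of 4.13 in FFPE and 4.79 in frozen libraries (-0.66 ± 0.28, adjusted p = 0.417, limma). The other 6 genes had differences of -0.38 to 0.24 with adjusted p-values of 0.83 to 0.992 (limma). With an SE of 0.78 to 0.86 for Neurog2, Nkx6-1 and Olig2, a 2-fold difference lies within 2 SE of 0. For Nes the mean difference of 0.24 ± 0.30 averaged opposite values, -0.81 in brain and -0.09 in heart against 1.17 in kidney and 0.70 in liver.

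Other genes of the same pathways were taken from 7 lists set by function, with the 9 genes left out. Earlier results of these data were known when the lists were set. The organ calls of listed genes are therefore not independent of that choice. The lists hold 147 genes, of which 143 were tested. In brain 37 of the 143 were higher and 15 lower (limma, adjusted p under 0.05), against 8.61% of all tested genes higher and 12.8% lower, and in liver 13 were higher and 22 lower, against 11.8% of all tested genes higher and 7.42% lower in liver. The split depends on the scaling of the libraries: 71.2% of the listed calls in brain were higher, against 86.3% after quantile normalization and 60.4% after centring on medians. Over all genes called in brain these shares were 40.2%, 47.4% and 24.7%. For liver the shares of the listed calls were 37.1%, 18.2% and 60.6%, so which direction held most of the listed liver calls depends on the scaling. Over all genes called in liver these shares were 61.3%, 50.6% and 79.6%. The median of all tested genes itself moved with centring, to -0.04 in brain and 0.10 in liver, against 0.11 and -0.10 as deposited. The brain and liver comparisons share all libraries and are not independent.

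Among transcription factors of neural patterning, 15 of 41 tested genes were higher in brain and 1 lower, with a median difference of 1.33 against 0.11 over all tested genes. Of the 41 genes, 30 are in the lowest 2 quintiles of mean signal, where the median of all genes was also above 0. The 4 with the smallest p were Vsx1, Lhx2, Dbx2 and Lmx1a. Vsx1, a homeobox gene of retinal interneurons, had 180 and 134 reads in FFPE and frozen brain and 45 to 64 in the other 6 libraries (1.5 ± 0.25, adjusted p = 0.000974, limma). Lhx2, a LIM homeobox gene of the forebrain and eye, had 128 and 83 reads in brain and 17 to 48 elsewhere (1.73 ± 0.35, adjusted p = 0.00321, limma). Dbx2, which marks progenitors of the intermediate spinal cord, differed by 1.99 (adjusted p = 0.00481, limma), and Lmx1a, a factor of the roof plate and of midbrain dopamine neurons, by 1.54 (adjusted p = 0.00486, limma). In liver 8 of the 41 were lower and 0 higher (limma; median -0.88), led by Otx1 (-3.17), Foxa2 (-3.15), Olig3 (-3.55) and Lmx1a (-1.32), with adjusted p-values of 0.00107 to 0.0115. Foxa2, which acts in the floor plate and in liver, had 7 and 1 reads in FFPE and frozen liver and 15 to 53 elsewhere. Olig3 had 0 and 1 reads in FFPE and frozen liver and 36 and 30 in brain, so its size depends on the 0.5 added. Without FFPE brain 1 of the patterning genes was called higher in brain, and without frozen brain 0 were (limma). In liver 3 were called lower without FFPE liver, 5 without frozen liver, 4 without either brain library, 5 without either heart library and 13 without FFPE kidney.

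Among the proneural bHLH factors and their regulators, 7 of 24 tested genes were higher in brain and 3 lower, with a median difference of 1.47. Of the 24, 14 are in the lowest 2 quintiles of mean signal. Bhlhe22, a factor of neuronal subtypes, had 102 and 80 reads in FFPE and frozen brain and 9 to 49 elsewhere (2.34 ± 0.45, adjusted p = 0.00229, limma). Nhlh1 and Nhlh2, bHLH genes of newly formed neurons, were higher by 1.79 and 1.38 (adjusted p = 0.00382 and 0.00483, limma). Tcf3, the widely expressed partner of the proneural factors, was lower in brain, with 220 and 113 reads in FFPE and frozen brain against 232 to 500 elsewhere (-1.01 ± 0.17, adjusted p = 0.001, limma). In liver 6 were lower and 1 was higher. Id2, an inhibitor of bHLH factors, had 0 reads in both liver libraries, against 27 and 41 in FFPE and frozen brain, 36 and 20 in heart, and 0 and 10 in kidney (adjusted p = 0.00227 for liver, limma). Tcf4, another partner, was higher in liver by 0.64 (adjusted p = 0.00255, limma), and Id4 and Bhlhe22 were lower by 1.15 and 2.02 (values of -1.15 and -2.02, adjusted p = 0.00261 and 0.00529, limma). Tcf3 and Tcf4 are in the highest quintile of mean signal, where 40.9% of all genes were called lower in brain and 39.3% higher in liver. Without FFPE brain 1 gene of this list was called higher in brain, and without frozen brain 0 were, while 1 was called lower in each case. In liver 3 were called lower without FFPE liver, frozen brain or frozen heart, and 1 without frozen liver.

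The remaining lists did not lean one way in brain, or held few called genes. Of the other filament genes of neural cells and their relatives, 2 of 9 were higher in brain: Des, the muscle filament desmin, by 1.08 (adjusted p = 0.0285, limma) and Nefm, a neurofilament subunit, by 0.68 (adjusted p = 0.0461, limma). In liver Synm and Vim were higher by 0.62 and 0.99, and Nefm was lower (-0.80). The count of 2 higher in brain was 0 without FFPE brain, frozen brain or FFPE heart, and 1 without frozen heart, FFPE liver or frozen liver.

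Genes of neural progenitors and Notch signalling split, with 7 of 28 higher and 5 lower in brain and a median of -0.18. The largest difference was that of Pou3f2, a POU factor of neural progenitors and upper-layer neurons. It had 217 and 195 reads in FFPE and frozen brain, 8 and 10 in heart, 7 and 34 in kidney, and 11 and 48 in liver (3.72 ± 0.44, adjusted p = 0.000117, limma). In contrast, the Notch ligands Jag2 and Dll1 and the receptor Notch1 were lower in brain (-0.86, -0.76 and -0.62, adjusted p = 0.000854 to 0.00568, limma). The same 3 genes and Fut4 were the 4 of this list that were higher in liver, by 0.50 to 0.78. All 4 are in the highest quintile of mean signal. In that quintile 40.9% of all genes were called lower in brain and 39.3% higher in liver. Without FFPE brain and without frozen brain, 1 gene of the list was called higher in each case. The count of 7 also fell when FFPE heart, frozen heart or frozen liver was left out. Genes called higher in brain over all tested genes became fewer in these fits too, which have 2 residual degrees of freedom. Lost power and dependence on these libraries therefore cannot be told apart. The count of 5 lower in brain fell to 3 without FFPE brain, FFPE heart or frozen liver and to 0 without frozen brain.

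Of 20 Hedgehog pathway genes 3 were higher and 3 lower in brain. Gli3, the repressor of the pathway, and Shh, its ligand, were higher by 0.82 and 1.42 (adjusted p = 0.00192 and 0.00442, limma). Frozen kidney, with 167 reads on Shh, lay above both brain libraries, at 139 and 113, and stayed above them on the CPM scale. The receptor Ptch1 and the ligand release factor Disp1 were lower in brain (-0.91 and -0.67) and higher in liver (0.94 and 1.27). In liver 3 Hedgehog genes were higher, the third being the transcription factor Gli2 (0.69), and 3 were lower. Shh was the lower gene with the smallest p there, with 21 and 25 reads in FFPE and frozen liver and 44 to 167 elsewhere (-1.93 ± 0.30, adjusted p = 0.000457, limma). Of 14 oligodendrocyte lineage factors 2 were higher and 3 lower in brain, with St18 (1.63) and Sox6 (0.62) higher and Zfp536 (-0.53), Cspg4 (-0.42) and Sox8 (-0.63) lower. In liver 3 were higher and 3 lower, led by Tcf7l2 (0.79) and Cspg4 (0.54), which were higher, and St18 (-0.90) and Zeb2 (-0.45), which were lower. The 3 Hedgehog and 3 oligodendrocyte genes lower in brain are all in the highest quintile of mean signal. In that quintile 40.9% of all genes were called lower in brain and 39.3% higher in liver. Gli3 and Sox6, higher in brain, and Zeb2, lower in liver, are in it too. Without FFPE and without frozen brain, 1 and 0 Hedgehog genes and 1 and 1 oligodendrocyte genes were called higher in brain. After quantile normalization 8 Hedgehog genes and 6 oligodendrocyte genes were called higher in brain, and 1 and 0 lower.

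In heart 0 listed genes were higher and 5 lower (limma; 24 of the 143 had an unadjusted p under 0.05, and 14.6% of all tested genes), against 0.162% higher and 1.97% lower of all tested genes (2.14% in either direction). They were Dll4 (-1.49), Fut4 (-0.86), Pou3f2 (-2.10), Vim (-1.38) and Disp1 (-0.79). Leaving out 1 library at a time gave -1.63 to -1.35 for Dll4, -1.18 to -0.54 for Fut4 and -2.64 to -1.57 for Pou3f2. The calls rest on both heart libraries, and lost power and dependence on 1 of them cannot be told apart. For Pou3f2 the reference includes brain, with 217 and 195 reads, and kidney and liver had 7 to 48. In kidney 1 was higher and 0 were lower (limma), against 0.897% higher and 0.566% lower of all tested genes (1.46% in either direction). It was Id4, an inhibitor of bHLH factors, with 119 and 211 reads in FFPE and frozen kidney and 41 to 108 elsewhere (1.28 ± 0.23, adjusted p = 0.0165, limma). Its call was lost without frozen kidney (1.12) and without frozen heart (1.23). For FFPE minus frozen 0 of the 143 were called in either direction (limma), against 1.35% of all tested genes, and 12 had an unadjusted p under 0.05, against 10.7% of all tested genes.

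**Figure D5:**
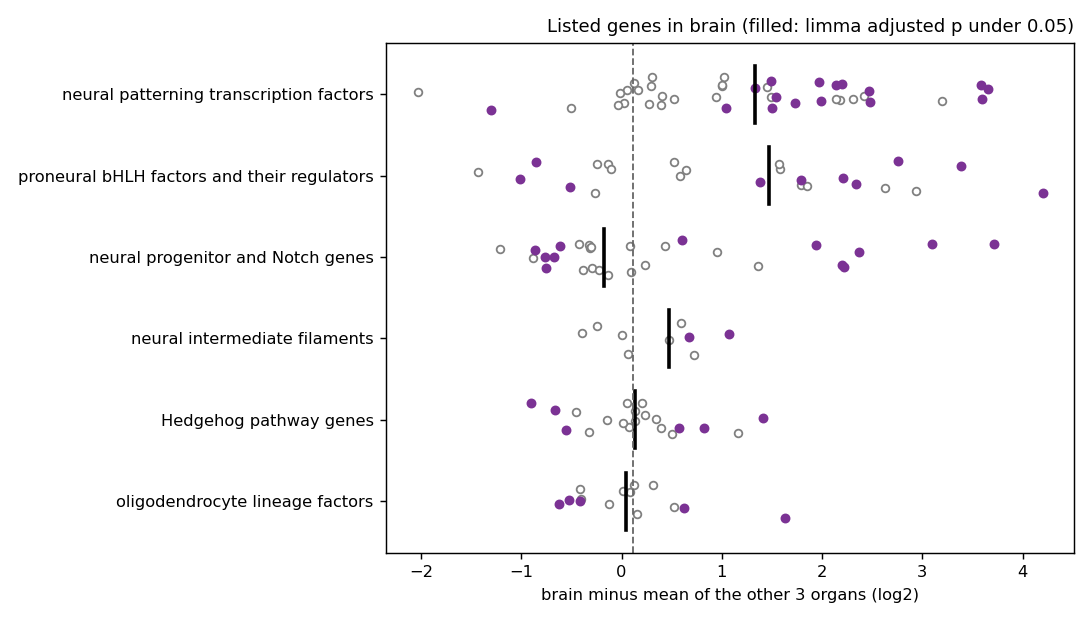
Brain minus the mean of the other 3 organs (log2) for every tested gene of 6 lists, filled where the adjusted p was under 0.05, with a black bar at the median of each list and a dashed line at the median of all tested genes (0.11). Patterning and proneural genes lie mostly to the positive side, with medians of 1.33 and 1.47, while Hedgehog and oligodendrocyte genes lie around 0, with medians of 0.13 and 0.05.

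Genes with the profile most like that of each gene were ranked by Pearson r over the 8 libraries among 11963 named genes of at least median signal. The points share the organs and the library-wide patterns described, so r is a description. For Nes these were Plcb2 (r = 0.979), Adam3 (0.978) and Tmprss15 (0.977), and for Nkx2-2os they were Pmaip1 (0.979), Efhb (0.978) and Mei4 (0.978). Neurod1 was followed most closely by Pde1c (0.994), Oca2 (0.982) and Rabgap1l (0.979), and Neurog2 by Tex21 (0.969), Ajm1 (0.961) and Plekha2 (0.955). The nearest genes were P2ry1 for Nkx6-1 (0.966), Ubd for Nkx2-2 (0.978), Sae1 for Nkx6-2 (0.95) and Ffar4 for Olig2 (0.924). None of these is one of the 9 genes, which were left out of the ranking.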

How the data were processed

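MeDIP-seq values of 8 columns (4 organs, FFPE and frozen) were analysed. Alignment to mm10 with Bowtie2, counting with featureCounts and analysis with limma are named in the submitters' processing notes, without versions. The values the authors deposited are log2 CPM in the form that limma's voom gives, and within a tolerance of 0.001 all stepped back to whole reads. Column names give no antibody; they were read as 5mC, since the deposit calls the table MeDIP-seq counts. Input was not analysed here, so a value can also reflect copy number and DNA yield. Each column was mapped to its organ and preservation, and 0 columns belonged to no group.

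The deposited log2 values were fitted in limma (R 4.3.3, limma 3.58.1) with organ and preservation as terms (residual degrees of freedom 3, prior 13.1). Of 27179 genes, the 25982 that reached 1 CPM in 2 or more columns were tested, with a variance trend and Benjamini-Hochberg adjustment within each comparison at a threshold of 0.05. Each organ was set against the mean of the other 3, and FFPE against frozen. No group has a second column, so the residual of a gene is how far its organ differences changed with preservation. The p-values set each difference against that residual after moderation towards the variance trend over all genes. The trend carries more degrees of freedom (13.1) than the residual (3). Nothing says that the columns came from separate animals. The fit was tested on simulated data, with changes placed only in genes of at least median signal. That test does not cover genes of low signal, such as Neurog2 and Nkx6-1. The planned fit with several columns per group did not apply. Exact Poisson intervals cover counting error only. Genes were placed by Entrez ID on RefSeq GRCm38.p6, the assembly behind mm10.

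The members and the lists were chosen with earlier results of these data known. Named genes are the members, up to 4 called genes of each list and comparison with the smallest p, and for each member the 3 genes of highest r. Genes outside this rule (those near Nes, Sox8, and genes given to complete a count) were named after their values were seen. Alternatives were quantile normalization, median centring, other filters, array weights, no variance trend and leaving out each library. A listed gene and its list's counts are not reported here.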

Additional observations from a re-analysis of the deposited data

Results flagged for a closer look

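The difference of Nes between preservations had opposite signs in brain and kidney. Its FFPE minus frozen difference was -0.81 log2 in brain, with 5.60 log2 CPM in FFPE and 6.41 in frozen tissue, and 1.17 in kidney, with 4.52 in FFPE and 3.35 in frozen tissue. In each organ the exact Poisson intervals of the FFPE and the frozen library did not overlap (41.2 to 56.4 and 73.8 to 97.5 CPM in brain, 16.7 to 30.1 and 6.90 to 14.1 CPM in kidney). These intervals cover counting error only. With 1 deposited column each, the spread between the samples of a group is unknown. The difference between organs was not tested, since the fit has no degrees of freedom left for it. The frozen kidney library is also the one with the most genes at 0 reads (2999), and its part in the value was not tested.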

How the results depend on the processing

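No paired analysis was possible because the columns carry no replicate numbers; FFPE and frozen libraries were matched only by organ, through the organ term. Without the variance trend 0 listed genes were called in brain, liver or kidney in either direction and 0 were lower in heart (limma). Over all 25982 tested genes 0 were called in these organ comparisons either. In that fit 59 of the 143 listed genes and 7872 of all tested genes had an unadjusted p under 0.05 in brain. Quantile normalization left 7 lower in brain and 4 higher in liver, against 15 and 13. Over all tested genes it left 2871 lower in brain and 1324 higher in liver, against 3333 and 3056. Median centring gave 20 higher and 13 lower in liver, against 13 and 22. Over all tested genes it gave 4832 higher and 1240 lower in liver, against 3056 and 1929. Array weights gave 2 higher and 11 lower in heart, 0 higher in kidney and 1 higher in FFPE tissue, and a filter of 5 CPM gave 2 higher in kidney. Over all tested genes array weights gave 377 higher and 1248 lower in heart, against 42 and 513. For all genes they gave 44 higher in kidney, against 233, and 297 higher in FFPE tissue, against 161. The filter gave 279 higher in kidney over its 22578 genes. The causes were not tested.

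Leaving out each library in turn gave 2 to 48 listed genes higher and 3 to 19 lower in brain, with 5 higher without FFPE brain and 2 without frozen brain. In liver it gave 2 to 17 higher and 7 to 29 lower (7 without FFPE and 8 without frozen liver), in heart 0 to 3 higher and 0 to 12 lower, in kidney 0 to 12 higher and 0 to 10 lower, and in FFPE tissue 0 to 1 higher and 0 lower. The calls in brain over all tested genes moved as well, and were also fewest without frozen brain and most without FFPE kidney. Fewer libraries leave 1 library of an organ and 2 residual degrees of freedom. A changed count is therefore not particular to the lists.

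The organ differences of the 8 fitted genes in brain kept their direction under every alternative run, except that of Olig2, which ran from -1.80 to 0.08. Those of Nes ran from 1.38 to 2.79, of Nkx2-2os from 1.40 to 2.59, of Neurog2 from 2.58 to 3.66, of Nkx6-1 from 1.87 to 3.58 and of Nkx2-2 from 0.38 to 1.56. Of 109 FFPE minus frozen values of these genes under the alternatives, 0 passed the threshold (limma, lowest adjusted p 0.166). Signs turned under quantile normalization for Nkx6-1 (0.22), Nkx6-2 (0.03) and Olig2 (0.30), and when a library was left out for Nes (-0.07 to 0.60), Nkx6-1 (-0.55 to 0.09), Nkx6-2 (-0.32 to 0.31), Olig2 (-0.45 to 0.40) and Neurod1 (-0.17 to 0.06). Under quantile normalization the called differences of Notch1 in liver (-0.03) and of Cspg4 in brain (0.06) and liver (-0.03) also turned. At 7 to 50 reads over all libraries, depth limits Olig1, Olig2, Nkx6-1 and Neurog2.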
